A study of Mus musculus with 8 samples.

Results

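Clusters of closely spaced accessible regions away from promoters were examined in squamous cell carcinoma (SCC) cells. Overlapping peaks from 8 ATAC-seq libraries gave 69399 merged regions. At least 6 libraries called 27675 of them. Of these, 17637 had a centre more than 2 kb from every protein-coding transcription start site (TSS) and are called distal here. Distal regions separated by gaps of at most 12500 bp were joined into chains, and the 433 regions in chains of 5 or more regions, 77 chains in all, are the members described below. The members were therefore chosen by measured calls and by their spacing, so that their number of calls and their closeness are descriptions and not findings.

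The cells came from cutaneous SCCs that were raised in K14CreER FAKflox/flox FVB mice by the DMBA/TPA chemical protocol and that carry Ha-Ras as driver. The isolated cells were treated in culture with 4-hydroxytamoxifen to delete the gene of focal adhesion kinase (FAK), so all 4 lines share this deletion and the K14-driven, tamoxifen-dependent Cre. FAK-/- cells received no FAK, and the others re-expressed by retrovirus either wild-type FAK (FAK-WT), FAK with the substitutions R177A/R178A/R190A/R191A/R216A/R218A that impair its entry into the nucleus (FAK-nls), or FAK with the kinase-deficient substitution K454R (FAK-kd). The constructs were put into a FAK-/- clone, and cells expressing them were selected with hygromycin. That selection is stated for the re-expressing lines only, so it cannot be told apart from re-expression of FAK. Each line gave 2 libraries, and 1 line stands for each FAK state, so that a difference between lines and a difference between FAK states cannot be told apart. The study asked which chromatin becomes accessible depending on FAK, on its nuclear localization and on its kinase activity.

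ATAC-seq uses the Tn5 transposase to cut chromatin that is free of nucleosomes, and accessible stretches away from promoters are often enhancers, which bind transcription factors and act on genes at a distance. Neighbouring enhancers can act on 1 gene together, and the densest such clusters, called super-enhancers, are defined by Mediator or by acetylated histone H3 lysine 27. Neither was measured in these libraries, so the clusters are called chains and not super-enhancers. AP-1, the dimer of Jun and Fos proteins, is a common occupant of enhancers in epithelial and mesenchymal cells.

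The reference sequence of 1 member is shown for 5 chains, namely 4 of the 5 chains with 8 or 9 regions and a chain near Tbl1xr1, chosen because its sequence holds a pair of AP-1 matches. Each is the central 200 bases, on the plus strand of GRCm38 (mm10) from RefSeq, of the region with the best of the lowest ranks by −log10 p over its libraries. Capitals mark exact matches to the AP-1 site, spelled TGAGTCA or TGACTCA, which are each other's reverse complement.
Syne3 chain, chr12:104992507-104992706: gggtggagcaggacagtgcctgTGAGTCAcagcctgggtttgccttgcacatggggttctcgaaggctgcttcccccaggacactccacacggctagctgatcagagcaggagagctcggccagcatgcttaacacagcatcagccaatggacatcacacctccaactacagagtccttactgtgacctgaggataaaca
Cavin3 chain, chr7:105502052-105502251: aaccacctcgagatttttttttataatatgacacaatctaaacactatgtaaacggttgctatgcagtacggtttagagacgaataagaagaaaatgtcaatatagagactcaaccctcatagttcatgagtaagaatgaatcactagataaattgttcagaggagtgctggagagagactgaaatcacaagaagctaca
Mical2 chain, chr7:112290113-112290312: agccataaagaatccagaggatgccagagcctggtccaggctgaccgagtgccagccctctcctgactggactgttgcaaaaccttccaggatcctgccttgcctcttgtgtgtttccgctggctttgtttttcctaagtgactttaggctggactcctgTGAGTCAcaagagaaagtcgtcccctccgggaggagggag
Hmga2 chain, chr10:120616635-120616834: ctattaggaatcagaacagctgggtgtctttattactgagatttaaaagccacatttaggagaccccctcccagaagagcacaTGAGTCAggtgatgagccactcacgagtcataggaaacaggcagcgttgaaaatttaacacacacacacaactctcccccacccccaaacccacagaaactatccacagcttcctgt
Tbl1xr1 chain, chr3:21938191-21938390: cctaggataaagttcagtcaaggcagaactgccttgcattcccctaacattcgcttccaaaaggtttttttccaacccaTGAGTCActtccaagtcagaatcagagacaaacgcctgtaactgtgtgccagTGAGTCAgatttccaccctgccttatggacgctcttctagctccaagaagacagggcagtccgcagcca

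The Syne3, Mical2 and Hmga2 sequences each held 1 AP-1 match, and the Cavin3 sequence held none, nor did that of the Slc44a3 chain, the other chain of 8, which is not shown. Of 8 such sequences extracted from the first chains, 5 held at least 1 match and 3 held none, and all 8 regions were called in all 8 libraries. The Syne3 region lies in an intron, 6071 bp from the nearest protein-coding TSS, and its pileup, the mean number of overlapping reads over the peak, was 33.1 and 22.9 in FAK-WT, 27.1 and 23.1 in FAK-/-, 18.2 and 16.3 in FAK-nls, and 21.2 and 32.2 in FAK-kd. The Hmga2 region is intergenic, 140265 bp from a TSS, and had pileups of 42.9 and 23.0 in FAK-WT, 32.7 and 27.0 in FAK-/-, 19 and 16 in FAK-nls, and 24.2 and 31.5 in FAK-kd. In both regions the FAK-nls libraries were the lowest and the other lines overlapped, and pileups were not scaled between libraries.

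The libraries held between 24402 peaks (FAK-nls 1) and 53728 peaks (FAK-WT 1), with a median pileup from 8.82 to 13.0, and the FAK-nls libraries had the fewest peaks and the lowest pileups. The peak lists hold no read totals, the libraries differed in mapped reads and in duplicates by the study's sequencing statistics, whose values are not used here, and the part of depth in the calls was not tested. No 2 libraries appeared to be copies of each other. The labelled cell type was checked against the promoters of marker genes, taken as 500 bp on either side of a protein-coding TSS. Of 20 basal keratinocyte and hemidesmosome genes, 5 had a promoter called in at least 6 libraries (Itga6, Itgb1, Dst, Plec and Cd44) and 9 had none called in any library (Krt5, Krt15, Krt17, Trp63, Itgb4, Col17a1, Cdh3, Sfn and Perp). Of 30 keratinocyte transcription factor genes, 18 had a called promoter, among them Klf4, Klf5, Sox9, Tfap2a, Grhl1 and Runx1, and 8 had none in any library, among them Trp63, Grhl2 and Grhl3. The epidermal differentiation list had 1 of 17 called and the immune list 0 of 12. The fibroblast list had 6 of 12, near the share of all genes given next, and 5 had none called in any library (Col1a2, Dcn, Lum, Postn and Thy1). The TGF-beta and EMT list had 20 of 20 and the housekeeping list 15 of 15. Over all protein-coding genes 10210 of 21829 promoters were called in at least 6 libraries. The promoters of the defining markers Krt5, Trp63 and Col17a1 were thus uncalled in cells labelled as cutaneous SCC, while 18 of the 30 transcription factor genes had a called promoter, and the chains are described without reference to a cell type.

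Chains held from 5 to 9 regions: 45 had 5, 22 had 6, 5 had 7, 4 had 8 and 1 had 9. Just outside the threshold stood 141 chains of exactly 4, with 564 regions. The chains of 2 to 4 together held 6302 regions, and 10902 distal regions stood alone with no distal neighbour within 12500 bp; these are called lone regions. A chain spanned a median of 32870 bp (12216 to 67672 bp), and neighbouring members were a median of 6089 bp apart. The regions themselves took up a median of 15.1% of the span. Together the chains covered 2.63 Mb.

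**Figure D1:**
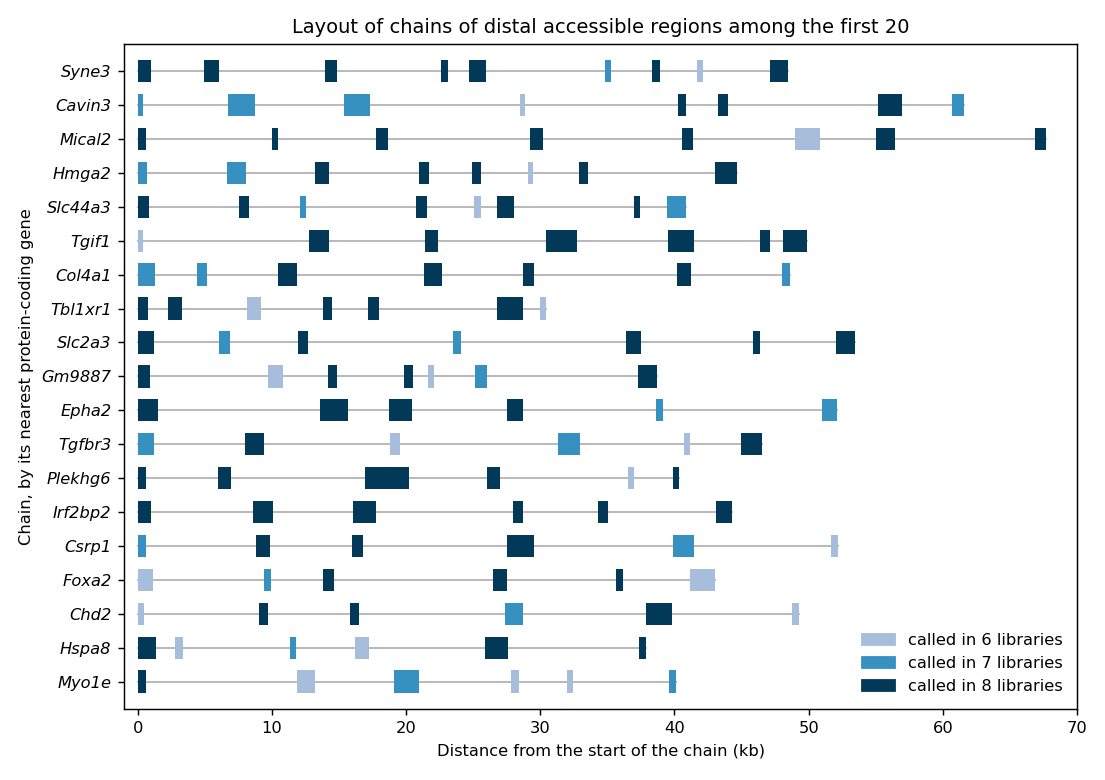
Layout of chains among the first 20, ranked by number of regions and then by summed length, with 1 left out. The x axis is the distance from the start of the chain in kb, each row is a chain named by its nearest protein-coding gene, and each block is a member drawn to scale and coloured by the number of libraries with a call. The Syne3 chain holds 9 regions, 7 of them called in all 8 libraries, and the Mical2 chain is the longest at 67672 bp.

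The chain with the most regions lay in and beside Syne3 (chr12:104978216-105026650, 9 regions), which encodes nesprin-3, an outer nuclear membrane protein that ties the nucleus to intermediate filaments. The next chain overlapped Cavin3, a caveola coat gene, and Cckbr, the gastrin receptor gene (chr7:105458543-105520104, 8 regions). Another lay within Mical2 (chr7:112249209-112316880, 8 regions), whose product oxidizes actin. The other chains of 8 overlapped no protein-coding gene, 1 with Hmga2, which encodes a chromatin-binding high mobility group protein, as its nearest gene, with a TSS 148868 bp from the centre of the chain (chr10:120603001-120647674) and with 2 regions centred in introns of non-coding genes, and 1 near Slc44a3, a choline transporter-like gene (chr3:121576945-121617808). These coordinates are mm10, and a nearest gene is a label of position and not a target.

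The chains of 7 regions stood at 5 places. One lay inside Dlgap1 and had the TGF-beta repressor gene Tgif1 as its nearest TSS, 114386 bp from its centre (chr17:70707003-70756876), and another lay inside Col4a2, next to Col4a1, the paired genes of basement membrane collagen IV (chr8:11371286-11419929). The others were nearest to Tbl1xr1, a subunit of the nuclear corepressor complex, to Slc2a3, which encodes the glucose transporter GLUT3, and to the predicted gene Gm9887. Further chains among the first 20, with 6 regions each, were nearest to Epha2 (an ephrin receptor), Tgfbr3 (the TGF-beta co-receptor betaglycan), Plekhg6, Irf2bp2 (a transcriptional corepressor), Csrp1 (a LIM protein of the actin cytoskeleton), Foxa2 (a forkhead pioneer factor), Chd2 (a chromatin remodeller), Hspa8 (the constitutive heat shock protein of the 70 family, in a chain overlapping the adhesion gene Clmp) and Myo1e (a class I myosin). The Plekhg6 chain had the tetraspanin gene Cd9 and the TNF receptor gene Tnfrsf1a within 50 kb.

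Of the 77 chains, 33 lay wholly inside 1 protein-coding gene, 49 overlapped such a gene and 28 overlapped none. Of the members, 55.9% (242 of 433) had their centre in an intron, 4.16% in an exon and 39.95% between genes, against 52.7%, 5.85% and 41.4% of lone regions. Members lay farther from protein-coding TSSs, with a median distance of 40344 bp against 29296 bp for lone regions, and 73.0% against 59.99% were more than 20 kb away. Chains of 2 to 4 had a median of 30484 bp, with 64.0% more than 20 kb away. The rule used TSS distance, and the members sit in only 77 chains, so these distances are a description and not a finding. Chromosome 7 held 10 chains, and its 59 members made up 5.33% of its distal regions. Chromosome 19 followed with 5.18%, and chromosomes 13, 16, X and Y had no chain among 822, 607, 307 and 3 distal regions.

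The genes near the chains were counted within lists of the pathways studied in such cells. A TSS within 50 kb of a chain was found for 109 of 21829 protein-coding genes (0.499%), and for 84 of the 10210 genes with a called promoter (0.823%). Among the lists examined, Fosb, an AP-1 gene, was the single member of 15 AP-1 genes within this distance (6317 bp from the chain nearest to Ercc1), and Ccn1, a matricellular target of YAP and TEAD, was the single member of 16 YAP-TEAD genes (26215 bp). None of the 20 basal keratinocyte, 17 differentiation, 30 keratinocyte transcription factor, 24 EGF receptor and Ras-MAPK, 20 TGF-beta and EMT, 28 focal adhesion, 17 growth and cell cycle and 20 cytokine genes had a TSS within 50 kb. Nor did any gene of the fibroblast, melanocyte, endothelial, immune, neuronal and housekeeping lists. Against a background of 0.499%, lists of this size hold too few genes for their counts to be read as above or below it. At 100 kb Atf3 (AP-1; 59467 bp), Cebpb (76099 bp) and Csf1 (50165 bp) were added.

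Calls were close to even between the classes, as the rule required at least 6 calls of every region. All 433 members were called in FAK-WT 1, 426 in FAK-WT 2, 431 and 427 in FAK-/-, 322 and 326 in FAK-nls, and 410 and 431 in FAK-kd. The FAK-nls libraries were the low ones, with 74.4% and 75.3% of members called, and 73.0% and 75.3% of lone regions. Of the members, 59.1% were called in all 8 libraries, 96 in 7 and 81 in 6. The first share compares with 55% of all 17637 distal regions, a share that the rule partly fixes. Neither FAK-nls library called 54 members (12.47%), against 13.6% of lone regions. In 3 chains every region was called in all 8 libraries; the only one of them among the first 20 was the Irf2bp2 chain.

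Pileup was next compared between members and lone regions, which passed the same filter on calls, using in each library the regions called there. The median pileup of members was 23.3 and 15.9 in FAK-WT, 18.6 and 15.4 in FAK-/-, 9.86 and 9.66 in FAK-nls, and 14.3 and 17.4 in FAK-kd. The medians of lone regions were 17.4 and 12.3 in FAK-WT, 13.9 and 11.8 in FAK-/-, 8.31 and 8.20 in FAK-nls, and 11.4 and 13.2 in FAK-kd. Members were thus higher in 8 of 8 libraries, by 0.35 ± 0.07 on the log2 scale (SD, n = 8 libraries), a mean ratio of 1.27. Chains of 2 to 4 lay between both classes in each library, for example with 20.3 in FAK-WT 1 and 9.06 in FAK-nls 1. A peak on a higher local background needs a higher pileup to be called, so this difference is not independent of the calls that the rule used and is given without a test.

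Fold enrichment, the ratio of the pileup to the local background of the same library, went the other way. Members had a median fold enrichment of 4.82 and 4.10 in FAK-WT, 4.37 and 4.19 in FAK-/-, 4.15 and 4.25 in FAK-nls, and 4.11 and 4.78 in FAK-kd. Lone regions had 5.53 and 4.58 in FAK-WT, 4.79 and 4.46 in FAK-/-, 4.35 and 4.54 in FAK-nls, and 4.40 and 5.23 in FAK-kd. Members were lower in each library, by 0.12 ± 0.04 on the log2 scale (SD, n = 8), a mean ratio of 0.919. The background that pileup and fold enrichment imply was between 1.44 (FAK-nls 1) and 1.75 (FAK-WT 1) times as high at members as at lone regions. MACS2 takes this background from the reads around a peak, where members by the rule have neighbours, so fold enrichment too is given without a test.

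**Figure D2:**
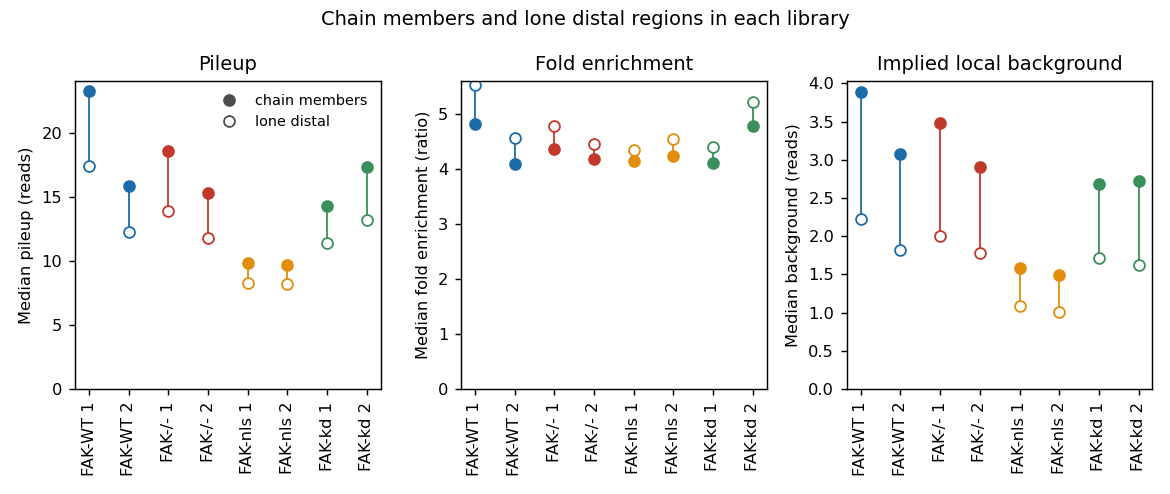
Median pileup in reads, fold enrichment as a ratio and implied local background in reads for each library on the x axis. Filled points are chain members, open points are lone distal regions, colours are the 4 lines, and a line joins the pair of a library. Members are above lone regions in pileup and background and below them in fold enrichment in all 8 libraries.

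The background was also read around the chains, since regions of higher coverage would raise the pileup of everything in them. Relative to the median lone region of the library, the implied background had a median of 1.65 over the 77 chains (0.813 to 2.82) and of 1.13 over the lone regions within 1 Mb of each chain (0.722 to 1.80). In pileup, 71 of 77 chains were above the lone regions within 1 Mb of them, with a median difference of 0.32 on the log2 scale (-0.52 to 1.01). With the lone regions within 1 Mb of any chain as the comparison, a choice made after seeing the data, members were higher by 0.30 on the log2 scale. The Syne3 chain had a background of 2.78 with 1.33 around it, the Hmga2 chain 2.52 with 1.20, and the Tbl1xr1 chain 2.28 with 0.722. The share of local copy number in these values was not tested.

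The −log10 p of a peak weighs the pileup against the background, and members were placed by its percentile among the 17637 distal regions. Over the regions called in each library, the members' median percentile exceeded that of lone regions in 7 of 8 libraries, by 3.18 ± 2.95 points (SD, n = 8), from -1.14 in FAK-nls 2 to 8.53 in FAK-/- 1. Among regions called in all 8 libraries the difference was 1.35 points, and at a gap of at most 5 kb, with 20 members, it was -8.74 points. It rests on the same background and on the quantity behind the calls, so no test is given. Peak length differed by 0.019 ± 0.032 on the log2 scale, higher in 5 of 8 libraries. Neither difference was as even over the libraries as that of the pileup.

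To compare the lines, an uncalled region was given the lowest rank, so that every library ranks the same regions. The median percentile of members was 52.5 and 50.5 in FAK-WT, 57.3 and 55.2 in FAK-/-, 52.7 and 46.7 in FAK-nls, and 54.2 and 52.5 in FAK-kd. Both FAK-/- libraries were above the other 6, and the other lines overlapped. FAK-WT, at 51.5 ± 1.4 (SD, n = 2), differed by -1.59 points from the mean of the other 6 libraries, on a side that changed in 6 of 12 alternatives, so that no direction is given. FAK-/-, at 56.2 ± 1.5 (SD, n = 2), was 4.71 points above the mean of the other 6, and 1.63 points above over the members called in all 8 libraries. The lines held 66.2% of the variance, and 13.96% over those members. These percentiles rest on the calls by which the members were chosen, and they are given without a test.

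Ranked by pileup, the members' median percentile was 67.7 and 68.4 in FAK-WT, 69.8 and 70.2 in FAK-/-, 62.9 and 62.4 in FAK-nls, and 66.5 and 66.2 in FAK-kd. The 4 lines did not overlap, with FAK-/- highest and FAK-nls lowest, and the lines held 99.1% of the variance, with uncalled members ranked lowest as before. Ranked by fold enrichment it was 33.5 and 35.6 in FAK-WT, 38.7 and 43.6 in FAK-/-, 47.0 and 41.5 in FAK-nls, and 41.6 and 40.1 in FAK-kd. There the FAK-WT libraries were the lowest, with a mean that differed by -7.48 points from that of the other 6. The FAK-nls libraries also had the fewest peaks, the lowest pileups and the most uncalled members, and the part of these in the order of the lines was not tested.

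**Figure D3:**
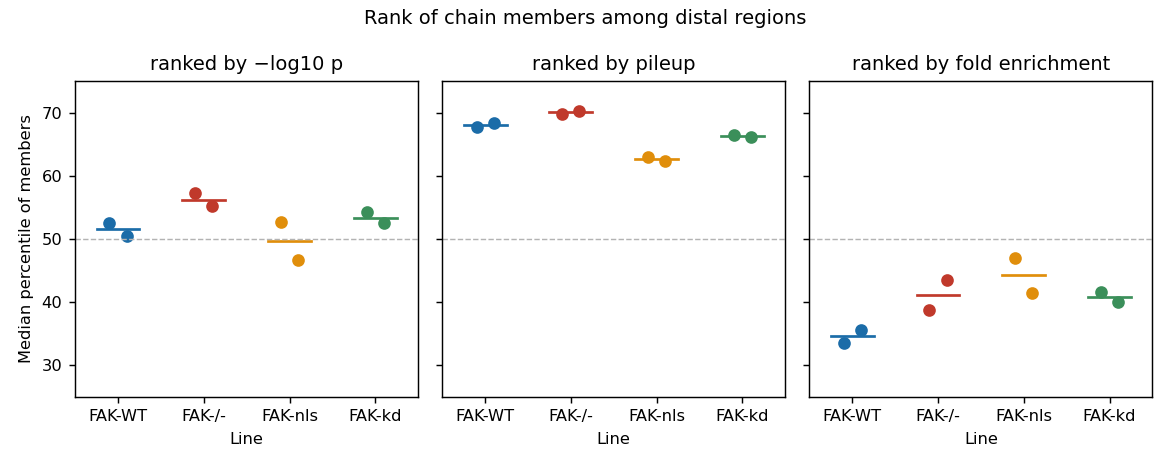
Median percentile of the 433 members among all distal regions called in at least 6 libraries, ranked by −log10 p, pileup or fold enrichment. Points are the 2 libraries of a line, bars their mean, and the dashed line marks 50. The replicates of a line agree most closely by pileup, where FAK-/- is highest and FAK-nls lowest, and FAK-WT is lowest by fold enrichment.

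Region by region, the separation of each line was counted among members and among all distal regions. Both FAK-WT libraries stood above the other 6 in 19 members (4.39%, against 4.46% of all distal regions) and below them in 18 (4.16%, against 5.32%). Both FAK-/- libraries stood above in 39 members (9.01%, against 5.55%) and below in 13 (3.002%, against 6.2%). For FAK-nls the counts were 33 above (7.62%, against 9.52%) and 45 below (10.4%, against 10.3%). For FAK-kd they were 13 above (3.002%, against 4%) and 21 below (4.85%, against 4.35%). These counts come from the same percentiles as the medians, neighbouring members share a chain, and no test was made of the shares.

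Averaged over a chain's regions, both FAK-/- libraries were highest in 11 of 77 chains (14.3%, against 6.84% of the 2835 chains of 2 or more) and lowest in 5 (6.49%, against 5.33%). Both FAK-WT libraries were highest in 3 chains (3.90%, against 5.01%) and lowest in 6 (7.79%, against 4.97%). Both FAK-nls libraries were highest in 8 (10.4%, against 7.51%) and lowest in 11 (14.3%, against 11.1%), and both FAK-kd libraries in 4 (5.19%, against 4.94%) and 4 (5.19%, against 3.74%). The base is made mostly of chains of 2 to 4, whose means cover fewer regions, and the share of member chains was the higher one in 7 of these 8 counts, so nothing is read from them about 1 line.

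**Figure D4:**
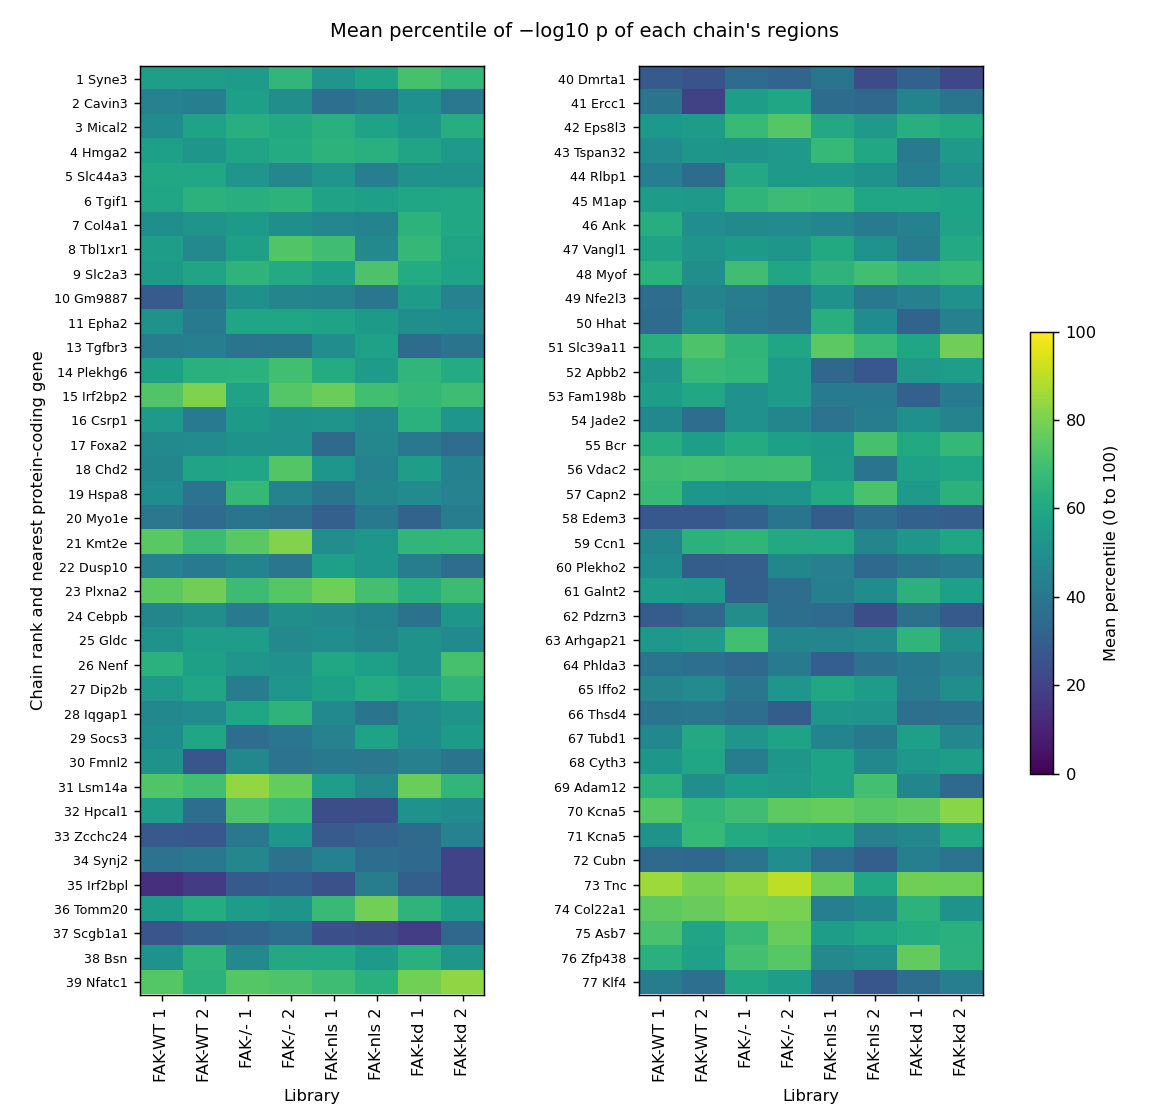
Mean percentile of −log10 p of the regions of the 77 chains with 1 left out (rows, by rank and nearest protein-coding gene) in each library (columns). Colour runs from 0 to 100, and an uncalled region counts at the lowest rank. The Tnc chain is high in most libraries, the Irf2bpl chain is low, and the Hpcal1 chain is high in both FAK-/- and low in both FAK-nls libraries.

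Among the first 20 chains, both libraries of a line stood above or below the other 6 in 11 chains, with 13 such separations in 20 chains, against 1403 in the 2835 chains of 2 or more (65 against 49.5 for every 100 chains). No test was made of this difference. There were 1 above and 1 below for FAK-WT, 3 and 0 for FAK-/-, 2 and 3 for FAK-nls, and 2 and 1 for FAK-kd. The Slc44a3 chain was highest in FAK-WT, with mean percentiles of 60.1 and 60.03 in FAK-WT, 52.0 and 46.5 in FAK-/-, 52.3 and 42.8 in FAK-nls, and 50.9 and 51.3 in FAK-kd. The Epha2 chain was highest in FAK-/-, with 59.3 and 58.8, against 51.0 and 41.7 in FAK-WT, 58.1 and 54.6 in FAK-nls, and 49.8 and 48.6 in FAK-kd. In the Syne3 chain FAK-kd was highest, with 71.1 and 66.1 against 52.1 to 65.8 in the other lines. Several margins were narrow, with 66.1 against 65.8 in the Syne3 chain and 58.8 against 58.1 in the Epha2 chain.

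The Chd2 chain was also highest in FAK-/-, with 59.2 and 73.3 against 44.04 to 58.6 in the other lines, and so was the Foxa2 chain, with 51.03 and 50.6 against 34.8 to 48.3. The Col4a1 chain was highest in FAK-kd, with 64.7 and 59.9, and lowest in FAK-nls, with 46.2 and 44.8. FAK-nls was highest in the Hmga2 chain, with 64.5 and 63.4 against 53.02 to 61.6, and in the Tgfbr3 chain, with 49.2 and 57.1 against 35.3 to 43.1, where FAK-kd was lowest. FAK-nls was lowest in the Cavin3 chain, with 36.3 and 39.7 against 39.9 to 56.5 and so by a narrow margin, and in the Tgif1 chain, with 57.6 and 56.3 against 58.8 to 64.6. The FAK-nls libraries called 5 and 5 of 8 Cavin3 regions, 6 and 6 of 7 Tgif1 regions, and 5 and 6 of 7 Col4a1 regions. The other lines called all of these regions, and an uncalled region counts at the lowest rank in these means. The part of missing calls in the order of the lines was not tested. FAK-WT was lowest in the Gm9887 chain, with 28.7 and 38.9 against 39.1 to 54.99, again narrowly.

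Further differences stood in chains outside the first 20, which were picked after their values were seen. The chain in Hpcal1, a gene of a neuronal calcium sensor (chr12:17722772-17774292, 6 regions), had mean percentiles of 72.3 and 67.6 in FAK-/-, 55.8 and 36.2 in FAK-WT, 50.9 and 48.5 in FAK-kd, and 24.0 and 24.0 in FAK-nls. Its regions were called 6 of 6 times in each library of the other lines, and 2 and 1 times in the FAK-nls libraries. The chain near Klf4, a zinc finger factor of epithelial differentiation (chr4:55707854-55734768, 5 regions, TSS 188845 bp from its centre), had 59.5 and 55.9 in FAK-/- and 26.6 to 42.6 elsewhere. In the chain beside Fosb and Ercc1 (chr7:19316368-19342871) the FAK-/- libraries had 55.7 and 59.0, and the others 19.2 to 45.3.

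The reverse order was found in the chain in Galnt2, a gene that starts mucin-type glycosylation (chr8:124256726-124295641), with 30.3 and 35.9 in FAK-/- and 43.0 to 64.1 in the other lines. The chain near Socs3, a feedback inhibitor of cytokine signalling (chr11:117932044-117964060), had 35.9 and 39.3 in FAK-/- and 44.4 to 59.0 elsewhere. The strongest chain by mean percentile lay near Tnc, the tenascin-C gene of the extracellular matrix (chr4:64065177-64098920), at 79.0 over the 8 libraries, and the weakest overlapped Irf2bpl, at 25.9. Chains thus ranged from the lower to the upper part of the distal regions, with a median of 52.0, and membership of a chain did not fix the strength of its regions.

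Distal regions called in 5 libraries or fewer, which the rule left out by their number of calls, were counted inside the spans of the chains. This set is defined by the same calls, so the tests below give no support independent of the rule. Of 38058 such regions 67 (0.176%) lay inside, in 43 of the 77 chains. Of each library's own, 0.219% and 0.189% lay inside in FAK-WT, 0.189% and 0.189% in FAK-/-, 0.184% and 0.180% in FAK-nls, and 0.217% and 0.200% in FAK-kd, on 52, 20, 26, 14, 4, 4, 12 and 33 regions in this order. The FAK-nls libraries were the lowest and FAK-WT overlapped the other lines. FAK-WT differed from the other 6 by 0.0104 percentage points (exact two-sided permutation over 28 choices of 2 libraries, p = 0.464), and FAK-nls by -0.0184 (exact permutation, p = 0.0714, and 0.357 after Benjamini-Hochberg adjustment over 10 tests), where the smallest p is 0.0357. Of 3132 distal regions called in both FAK-WT and neither FAK-/- library, 8 were in chain spans (0.255%), and of 695 with the reverse pattern, 2 were (0.288%). Of 9512 called in both FAK-WT and neither FAK-nls library, 70 were (0.736%), but 54 of these are members themselves, and none of 149 with the reverse pattern was, which allows up to 2.01%. Of 2799 called in both FAK-WT and neither FAK-kd library, 5 were (0.179%), 1 of them a member, and none of 474 with the reverse pattern was, which allows up to 0.633%.

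Sequence was searched in the central 500 bp of each region, on both strands. An AP-1 match (TGAGTCA or TGACTCA) was found in 213 of 433 members (49.2%, 95% Wilson interval 44.5 to 53.9), in 52.1% of regions in chains of 2 to 4, in 53.5% of lone regions (52.5 to 54.4) and in 35.3% of all merged regions. The same letters in a shuffled order (ACTGAGT or ACTCAGT) were found in 12.7%, 12.7%, 12.4% and 10.4%. Members thus held AP-1 matches more often than regions at large and not more often than lone distal regions, with overlapping intervals. At least 1 AP-1 match was found in 75 of 77 chains, and in 44 chains the regions with a match were no fewer than those without. The intervals treat regions as independent, which members of a chain are not, and a match does not show that a factor is bound.

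Members were richer in G and C, with a median of 49.2% against 47.2% in chains of 2 to 4 and 46.2% in lone regions. Within regions of 45 to 50% GC, AP-1 matches were found in 54.4% of 149 members and 56.0% of 3369 lone regions. Below 45% the shares were 45.1% of 91 and 56.8% of 4428, from 50 to 55% they were 48.5% of 136 and 51.2% of 2075, and above 55% they were 43.9% of 57 and 35.5% of 1030. Members were thus lower in 3 of the 4 bands and higher in the richest, which holds the fewest members, and no test was made. The NF-kB motif was matched in 9.47% of members (7.06 to 12.6), 5.46% of lone regions (5.05 to 5.90) and 6.31% of all merged regions, and it was the single motif of 13 whose intervals for members and lone regions did not overlap. In chains of 2 to 4 the NF-kB share was 6.52% (5.94 to 7.16), and that interval overlapped the one for members. The NF-kB matches were not set against GC content. Matches to the CTCF motif were found in 1.62% of members (0.785 to 3.30), 3.33% of lone regions (3.01 to 3.68) and 5.03% of all regions.

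The intervals of the other motifs overlapped between members and lone regions, and shares are given for members, lone regions and all merged regions in this order. TEAD (GGAATG) was matched in 33.03%, 32.5% and 28.2%, and RUNX (TGTGGTT) in 16.6%, 17.2% and 13.9%. ETS (AGGAAGT or CGGAAGT) was matched in 18.7%, 17.04% and 17.04%, and KLF/SP (GGGCGGG), a site of GC-rich promoters, in 8.31%, 6.89% and 13.8%. GRHL, a family of epithelial factors (AACCGGTT or AACTGGTT), reached 3.002% (1.76 to 5.07), 1.63% (1.41 to 1.89) and 1.54%. CRE (TGACGTCA) was matched in 1.39% (0.637 to 2.99), 0.771% (0.623 to 0.953) and 1.07%, on 6 members. STAT (TTCCNGGAA) was matched in 2.77%, 1.77% and 1.78%, the p53 family motif in 5.31%, 4.55% and 4.33%, and the NFI motif in 0.231%, 0.119% and 0.0706%. The ratios of GRHL and CRE between members and lone regions were near that of NF-kB, on few members. CEBP (TTACGCAA or TTGCGCAA) was matched in 0 of 433 members, which allows a share of up to 0.693% by the limit of 3 counts and 0.879% by the Wilson interval, against 0.294% and 0.313%.

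**Figure D5:**
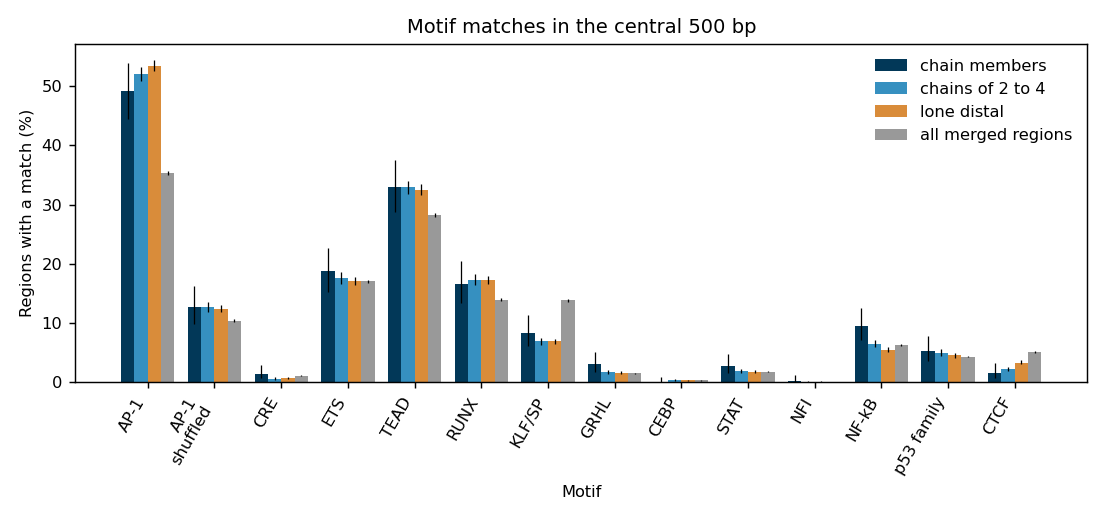
Share of regions with a motif match in the central 500 bp, in percent, for chain members, chains of 2 to 4, lone distal regions and all merged regions. Bars start at 0 and error lines are 95% Wilson intervals. AP-1 matches are found in 49.2% of members and 53.5% of lone regions, and NF-kB matches in 9.47% and 5.46%.

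The ranking used for super-enhancers was applied to all 13737 distal chains and lone regions, by the sum of length times pileup, with the cut where the scaled curve has a slope of 1. Above it stood 200 (1.46%), of which 56 were chains of 5 or more, 130 were chains of 2 to 4 and 14 were lone regions. Thus 56 of 77 member chains (72.7%) passed, with a median place of 113. The sum grows with the number of regions, by which the member chains were chosen, so that their high places are a description and not a finding. The first place was taken by a pair of regions at chr17:39843268-39848804 on an annotated ribosomal RNA gene, with a summed signal of 77876 against 13465 for the next, the Tgif1 chain, and with pileups of 184 to 249 at its highest region in the 8 libraries. Without that pair, a choice made after seeing the data, 889 passed (6.47%) and 74 of 77 member chains (96.1%) were among them. By length times fold enrichment or by length alone all 77 passed, and the summed length is tied to the rule in the same way. The cut thus depended on 1 locus and on the signal used.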

How the data were processed

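Chromatin accessibility was measured by ATAC-seq in 8 libraries of SCC cells, 2 for each of 4 lines. The authors aligned reads to mm10 with the bcbio pipeline and called broad peaks in each library separately with MACS2 (2.1.1 per the labels' processing notes). The deposited peak lists give pileup, a coverage signal in reads not scaled between libraries as far as stated, fold enrichment, the ratio to a local background, and −log10 p-values and −log10 q-values of the authors' peak caller. The lists hold no read counts, so count tests could not be made.

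Peaks on chromosomes 1 to 19, X and Y that overlapped by 1 bp were merged, and TSSs were those of protein-coding transcripts in GENCODE release M21 (same build; no peak end exceeds its chromosome). Gaps were at most 12500 bp. The implied background was obtained from pileup and fold enrichment, each with 1 read added as MACS2 does. Lines were compared inside spans by exact permutation tests, checked on simulated data, on a set that is also defined by the calls. With 2 libraries of 1 line per group these p-values measure the spread between libraries only. The exact tests planned for the peak strength of members, against lone regions and between lines, are not printed, since strength is not independent of the calls. Python 3.11.15, pandas 2.3.3 and scipy 1.17.1 were used. Named genes are the nearest and overlapping protein-coding genes of the first 20 chains and up to 6 genes of each list within 50 kb, with 1 chain not reported here, and other names were chosen after their values were seen. Members, lists and tests were chosen with earlier results of these data known. Spacing, the number of libraries, TSS distance, peak filters, motif window, ranking measure and single libraries were varied. Replicate numbers did not pair the libraries, since deviations of same-numbered libraries correlated by -0.169 to 0.0282 over 9694 regions.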

Additional observations from a re-analysis of the deposited data

Results flagged for a closer look

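Permuting the libraries between lines picked out 3 differences, and none is called as a difference between lines. They rest on the called regions, and so on the calls that the rule used, and are given as values only. The gain in log2 pileup of chain members over lone distal regions was 0.24 in FAK-nls and 0.39 in the other 6 libraries, a difference of -0.14. For log2 peak length it was -0.019 in FAK-nls and 0.031 in the others, a difference of -0.050. For log2 fold enrichment it was -0.18 in FAK-WT and -0.10 in the others, a difference of -0.074. The FAK-nls libraries called 322 and 326 of the 433 members. FAK-WT 1 had the highest median pileup of the 8 libraries, 13.0, and FAK-WT 2 had 11.8. The part of these in the differences was not tested. Lines with 2 libraries allow no search for single libraries that stand apart within a line.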

How the results depend on the processing

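The numbers of chains and members followed the rule closely. A gap of at most 5 kb left 4 chains with 20 members, 20 kb gave 209 with 1220, calls in all 8 libraries 11 with 59, calls in at least 4 libraries 217 with 1262, a minimum −log10 q of 3 17 with 88, equal numbers of the strongest peaks 23 with 124, and a call only at 50% coverage of the region 16 with 87. Over 2 kb from any annotated TSS left 288 members. Leaving out each library in turn, with 5 of the remaining 7 required, gave 80 to 127 chains and 448 to 725 members. The most, 125 and 127 chains and 709 and 725 members, came without FAK-nls 1 and FAK-nls 2. A region with at least 6 calls keeps at least 5 when 1 library is left out. This setting could therefore hardly remove a chain, and it says nothing of stability. Of the first 20 chains, 1 was still in a chain of 5 or more at a gap of 5 kb and 7 with calls in all 8 libraries. At 50% coverage 8 were, at the minimum −log10 q 10, with equal numbers of the strongest peaks 11, and under the other alternatives 16 to 20.

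The pileup of members over lone regions was 0.17 (against chains of 2 to 4) to 0.38 on the log2 scale under 13 alternatives and fold enrichment -0.30 to -0.071; they ranged from 0.34 to 0.37 and from -0.13 to -0.11 without single libraries. The percentile of −log10 p moved more: it was -8.74 at a gap of 5 kb, 3.75 at the minimum −log10 q, 1.15 against chains of 2 to 4, 2.77 over 20 kb from a TSS and 1.35 in regions called in all 8 libraries, and 2.41 to 3.796 without single libraries. The percentile difference was larger with the rule set to calls in all 8 libraries (6.19), at a gap of 20 kb (5.13) and with equal numbers of the strongest peaks (4.86). Log2 peak length was -0.037 at 5 kb and -0.016 over 20 kb from a TSS, and larger than 0.019 at a gap of 20 kb (0.066), in all 8 libraries (0.11), in at least 4 (0.046), against chains of 2 to 4 (0.031), 2 to 20 kb from a TSS (0.084) and against lone regions within 1 Mb (0.043), the last an added alternative; without single libraries it was 0.013 to 0.025. The cause was not tested.

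FAK-WT minus the other libraries in median percentile was positive at a gap of 20 kb (2.02), with calls in all 8 libraries (6.66), at the minimum −log10 q (5.83), with equal numbers of peaks (2.79), over the members called in all 8 libraries (0.055) and by pileup (1.75), and was -7.48 by fold enrichment, so no direction is given for it; it was -2.87 to -0.58 without single libraries. The mean of FAK-/- was above that of the others in all 12 alternatives, from 1.15 with calls in all 8 libraries, 1.25 by fold enrichment and 1.63 over the members called in all 8 to 8.20 at a gap of 5 kb, with 4.21 for calls in at least 4 libraries. Without single libraries it was 3.64 to 5.77. By fold enrichment FAK-/- 1, at 38.7, was below both FAK-nls and both FAK-kd libraries. The alternatives reuse the same 8 libraries, and 1 of them, the replicate block, leaves the difference unchanged. They are therefore no independent support. These alternatives for FAK-/- were added after seeing the data. The variance between lines rose to 84.8% (gap of 20 kb), 93.95% (at least 4 libraries) and 99.1% (by pileup), and fell to 13.96% over the members called in all 8 libraries, 32.4% at a gap of 5 kb and 45.7% with calls in all 8. The difference of FAK-WT in other distal regions inside spans was -0.0036 points with calls in all 8 libraries, -0.0015 over 5 kb from a TSS, -0.035 at the minimum −log10 q and from -0.0047 (without FAK-WT 1) to 0.0254 without single libraries; no such region lay inside the spans at a gap of 5 kb. With the replicate number as a block (16 choices, smallest exact p = 0.0625) the differences of -1.59 for FAK-WT and 4.71 for FAK-/- were the same, and that of 0.0104 inside spans had p = 0.5, which changed no call.

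The AP-1 difference of -4.28 points was 1.70 with calls in all 8 libraries, -0.65 with the motif searched in the whole region, -1.93 over 2 kb from any annotated TSS, -2.20 with calls in at least 4 libraries, and -4.69 to -2.66 under the others. Genes near a chain numbered 51 within 20 kb, 220 within 100 kb and 52 by overlap with the gene body, against 109. The share of member chains above the slope point was 100% by length times fold enrichment and by length alone and 96.1% without the strongest pair, against 72.7%. A region without a call can be accessible below the threshold, and the FAK-nls libraries called the fewest members; the part of depth was not tested.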
